A study of Rattus norvegicus with 11 samples.

Results

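The genes described here are 10 textbook members of the unfolded protein response and the integrated stress response, namely Hspa5, Xbp1, Dnajb9 and Herpud1 in the first and Atf4, Ddit3, Trib3, Chac1, Asns and Sesn2 in the second. They were chosen by symbol, with earlier results of these data known. All 10 were found among the 24481 genes with read counts and the 24205 genes with FPKM, a level corrected for transcript length and library size. The libraries were made from stranded mRNA of the ileum of Sprague-Dawley rats aged 6 to 8 weeks, in a study that asked how inhibition of the enzyme MAGL acts on the intestine in severe acute pancreatitis (SAP). In the SAP and JZL184 groups, 3% sodium taurocholate was infused into the pancreatic duct. The rats were divided into groups and injected 24 h after the surgery. The JZL184 group (4 libraries) then received the MAGL inhibitor JZL184 at 10 mg/kg into the peritoneum. The SAP group (4 libraries) and the control group (3 libraries) received vehicle, and the ileum was taken 24 h after that injection. The treatment label of the control libraries names a control plasmid, which the study's methods do not mention, and whether control rats were operated on is not stated in the sources used here.

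Unfolded proteins in the endoplasmic reticulum (ER) release the chaperone BiP from the sensors IRE1, PERK and ATF6, and the activated sensors raise the transcription of chaperones and of the degradation machinery. PERK is also one of the kinases that phosphorylate the translation factor eIF2 alpha. This phosphorylation lowers protein synthesis in general while it favors translation of the transcription factor ATF4, whose targets serve amino acid supply, redox balance and, under lasting stress, cell death. The ileum is rich in secretory cells, such as goblet, Paneth and plasma cells, that carry a heavy load of ER protein folding. Much of the pathway acts through phosphorylation, splicing of Xbp1 mRNA and selective translation, and none of these is visible in reads summed per gene.

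Between 26341299 and 33847135 reads per library lay on genes. Control libraries 1 and 2 differed with a chi-square of 2.81 per gene, against 77.5 to 563 in the other 14 pairs of libraries within a group, and they were counted as 1 sample, so that n = 2 in the control group. SAP libraries 1 and 2 stood apart from the rest. In them the longest 20% of genes were higher than the shortest 20% by 1.27 and 1.41 on the log2 scale, relative to the mean of the libraries, whereas the other libraries lay between -0.68 and 0.24. SAP library 2 also had 28 reads on Y-linked genes where the other libraries had 1224 to 4668, although the study describes male rats. Fold changes that rest on the SAP libraries are therefore given with and without libraries 1 and 2. Although the labels name intestinal epithelial cells, the source was ileum tissue, and markers of smooth muscle, macrophages and plasma cells were read in every library. The summed FPKM of 7 enterocyte markers was 31283 to 33915 in the control libraries, 7790 to 20834 in SAP and 3747 to 18153 in JZL184. Fabp6 made up most of the control sum (20506 to 21819), and it was below control in all SAP and JZL184 libraries. In SAP, 1 further marker of the 7 was below all control libraries (Epcam, 2220 to 3059 against 3095 to 3814), 1 was above them (Cdh17, 147 to 278 against 107 to 109) and 4 overlapped control. In JZL184, Vil1 was also below control and 5 of the 7 overlapped it. The summed FPKM of 6 plasma cell markers was 225 to 240.0 in control, 106 to 218 in SAP and 96.0 to 149 in JZL184. In SAP, 1 of the 6 (Sdc1) was below all control libraries and 5 overlapped control. In JZL184, 2 were below control (Jchain and Mzb1), 1 was above it (Fcrl5, 0.86 to 2.64 against 0.70 to 0.82) and 3 overlapped it. The sum of 6 neutrophil markers was 1.1 to 2.5 in control, 8.4 to 80.5 in SAP and 12.9 to 250.4 in JZL184. S100a8 and S100a9 made up most of it in SAP and JZL184, and Cxcr2 and Mpo were below 1 in all libraries. In SAP 4 of the 6 were above all control libraries, and in JZL184 5 were. Mpo was below all control libraries in both groups (0.07 to 0.30 in SAP and 0.08 to 0.25 in JZL184 against 0.33 to 0.56). All 6 exocrine pancreas markers were below 1 in every library. In bulk tissue, fewer cells of a type and less RNA per cell cannot be told apart, and the part of these cell types in the results was not tested.

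Several of the 10 genes carry matches to known stress response motifs just upstream of their start. These sequences are shown because each motif is known from one arm of the response. Windows from 250 bases before to 50 bases after the start, taken from RefSeq on the build GRCr8 and matched by symbol, were available for all 10 genes. They were searched on both strands for 4 motifs. The ER stress response element, which ATF6 and XBP1 bind, was searched as CCAAT and CCACG with 9 bases between them, and the related ERSE-II as ATTGG and CCACG with 1 base between them. The UPR element was searched as TGACGTGG, and the C/EBP-ATF response element, which ATF4 binds with a C/EBP partner, as TGATGNAA. Capitals mark the motif, and each sequence is written 5′ to 3′ on the strand of the gene. Hspa5 lies at chr3:38452968-38452996 (+), Xbp1 at chr14:84604553-84604581 (+), the first Herpud1 sequence at chr19:10614812-10614840 (-) and the second at chr19:10614873-10614902 (-), Chac1 at chr3:126795953-126795982 (+) and Trib3 at chr3:161275536-161275565 (-).
Hspa5, ER stress response element: gttcaCCAATCGGAGGCCTCCACGacggg
Xbp1, ER stress response element: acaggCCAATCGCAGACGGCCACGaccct
Herpud1, ERSE-II: cgggcgctgATTGGGCCACGttgggcact
Herpud1, C/EBP-ATF response element on the other strand: accacggcgggTTGCATCAgcccgcaccct
Chac1, C/EBP-ATF response element on the other strand: cttctccgccgTTGCATCActcctgctagg
Trib3, C/EBP-ATF response element on the other strand: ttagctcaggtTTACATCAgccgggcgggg

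The ER stress response element was found in 2 of the 10 windows, Hspa5 and Xbp1, where it ended 25 and 47 bases before the start. Among all 33469 windows it was found in 22, or 0.0657%. ERSE-II was found in Herpud1, ending 114 bases before the start, and in 17 of all windows (0.0508%). The C/EBP-ATF response element was found in Herpud1, Chac1 and Trib3, and in 1332 of all windows (3.98%). Herpud1 was the one gene of the 10 whose window held a motif of each arm. The UPR element was in 0 of the 10 windows and in 0.595% of all windows. No match was found in the windows of Dnajb9, Atf4, Ddit3, Asns and Sesn2, which says only that these letters are not in these 300 bases. The motifs did not overlap each other in the 10 windows, and a match is a description and not a measured binding site.

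In FPKM, which can be compared between genes, the 10 genes differed widely in abundance. Hspa5 ranked 129 of 24205 genes by mean FPKM over all libraries, Atf4 288, Xbp1 560, Ddit3 1122 and Herpud1 1602. Trib3 ranked 4544, Sesn2 4913, Asns 6264, Dnajb9 6721 and Chac1 9696. The lowest library of Hspa5 lay above the highest of Atf4, and the lowest of Herpud1 lay above the highest of Trib3. All other neighbors in this order overlapped across libraries. In 0 of the 10 genes did a comparison pass the threshold of edgeR (adjusted p below 0.05 over all genes tested and a fold change above 2 or below 0.5), so the values of the libraries are given first and the tests after them.

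**Figure D1:**
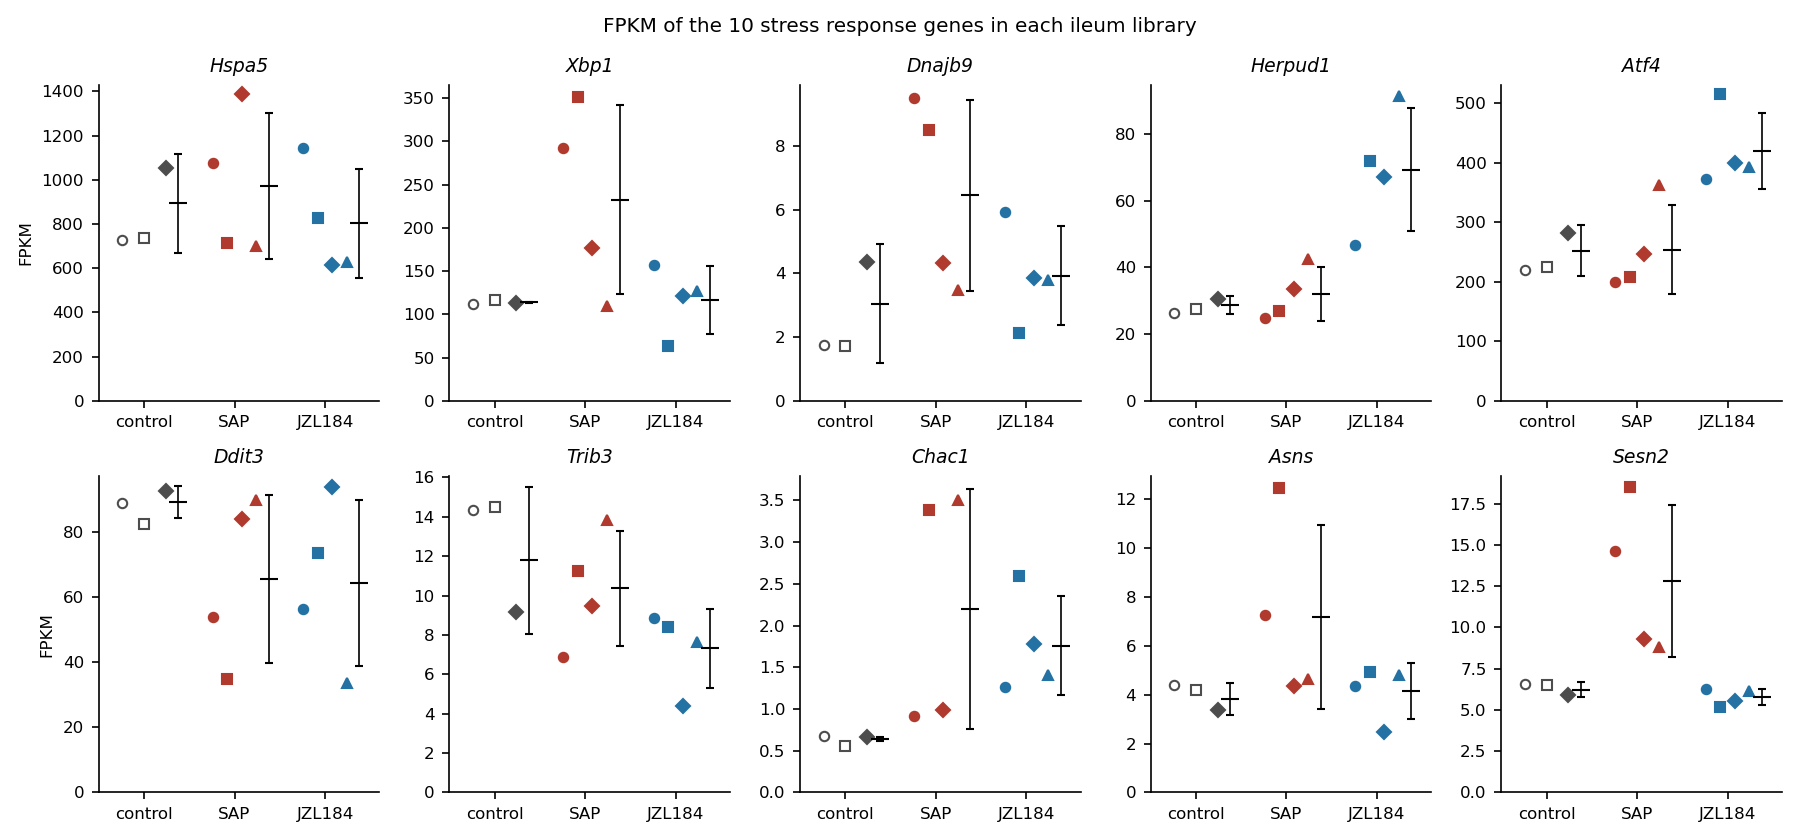
FPKM of the 10 genes in each library, with 1 panel per gene, the 3 groups on the x axis, 1 symbol per library number, open symbols for control libraries 1 and 2, and the mean ± SD beside them (n = 2 control samples, 4 SAP, 4 JZL184). Herpud1 lies between 46.8 and 91.4 in JZL184 and at 42.6 or below in the other groups, and Sesn2 lies at 8.82 or above in SAP and at 6.59 or below elsewhere.

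Hspa5 encodes BiP, the chief ER chaperone and the most used readout of ER stress. Its FPKM was 727, 739 and 1053 in the control libraries, 1078, 713, 1389 and 699 in SAP and 1144, 828, 615 and 626 in JZL184. The groups overlapped throughout, and SAP library 3 was highest. The group means were 893 ± 226 (SD, n = 2), 969.8 ± 330.2 (SD, n = 4) and 803 ± 247 (SD, n = 4). On the log2 scale, SAP differed from control by -0.04 (SE, standard error, 0.39, 95% interval -0.95 to 0.87, edgeR adjusted p = 0.959). In JZL184 against SAP the log2 fold change was -0.11 (SE 0.35, interval -0.89 to 0.66, adjusted p = 0.867). These values were 0.15 and -0.31 without SAP libraries 1 and 2. Changes within these intervals were not detectable with these libraries.

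Xbp1 encodes the transcription factor whose mRNA is spliced by IRE1, and it is also abundant in plasma, Paneth and goblet cells. Its FPKM was 112, 117 and 113 in control, 292, 351, 177 and 109.9 in SAP and 157, 63.1, 121 and 127 in JZL184. SAP libraries 1 and 2 were far above all others, SAP library 4 was at the level of control, and JZL184 library 2 was lowest. The difference of SAP from control was 0.82 on the log2 scale (SE 0.44, interval -0.20 to 1.84, edgeR adjusted p = 0.459) and 0.25 without SAP libraries 1 and 2. JZL184 against SAP gave -0.81 (SE 0.36, interval -1.60 to -0.02, edgeR adjusted p = 0.228) and -0.25 without these libraries. With SAP libraries 1 and 2 alone in the SAP group, edgeR called Xbp1 in both comparisons, higher than control by 1.20 (adjusted p = 0.00482) and lower in JZL184 by 1.21 (adjusted p = 0.0367), with values from 0.00482 to 0.943 and from 0.0367 to 0.732 over all alternatives. In these 2 libraries the sum of the plasma cell markers, 122 and 106, was the lowest of the SAP group. Jchain, Mzb1, Tnfrsf17 and Sdc1 were lower in both than in SAP libraries 3 and 4, whereas Fcrl5 and Pou2af1 overlapped. The part of plasma cells in the Xbp1 result was not tested.

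Dnajb9, an ER co-chaperone of BiP induced through XBP1, had an FPKM of 1.75, 1.72 and 4.37 in control, 9.51, 8.50, 4.32 and 3.48 in SAP and 5.92, 2.14, 3.87 and 3.79 in JZL184. As for Xbp1, SAP libraries 1 and 2 were highest. SAP libraries 3 and 4 lay below control library 3. SAP against control gave a log2 fold change of 0.91 (SE 0.52, interval -0.29 to 2.10, edgeR adjusted p = 0.461) and 0.31 without SAP libraries 1 and 2. It was 0.43 without the sample of control libraries 1 and 2 and 1.62 without control library 3. In JZL184 against SAP it was -0.54 (SE 0.36, adjusted p = 0.387) and 0.04 without them.

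Herpud1 encodes a membrane protein that organizes ER-associated degradation, and it had the smallest p of the 10 genes in both comparisons with JZL184. Its FPKM was 26.4, 27.5 and 30.6 in control, 24.8, 27.0, 33.5 and 42.6 in SAP and 46.8, 72.0, 67.0 and 91.4 in JZL184. All 4 JZL184 libraries lay above all libraries of the other groups, whereas SAP and control overlapped. The mean FPKM was 69.3 ± 18.3 (SD, n = 4) in JZL184 and 32.0 ± 8.00 (SD, n = 4) in SAP. In normalized counts JZL184 was 2.41 times SAP, a log2 fold change of 1.27 (SE 0.33, interval 0.53 to 2.01). With edgeR the adjusted p was 0.105 and with DESeq2 it was 0.0156, which is a call, and over all alternatives it lay between 0.0156 and 0.262. Against control the log2 fold change was 1.25 (SE 0.36, interval 0.43 to 2.08), with adjusted p-values of 0.0894 from edgeR and 0.0318 from DESeq2, and between 0.0163 and 0.594 over the alternatives. Without SAP libraries 1 and 2 the value against SAP was 0.93 (edgeR adjusted p = 0.262). Between SAP and control it was 0.01 (SE 0.35, edgeR adjusted p = 0.988), or 0.35 without SAP libraries 1 and 2. JZL184 library 1 was lowest of its group, and without it edgeR called Herpud1 in both comparisons, at 1.45 (adjusted p = 0.0461) and 1.42 (adjusted p = 0.0274).

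Atf4 encodes the transcription factor at the center of the integrated stress response. Its FPKM was 219, 224 and 283 in control, 199, 208, 247 and 363 in SAP and 373, 514, 399.8 and 392 in JZL184. All JZL184 libraries were above all SAP and control libraries in FPKM, with SAP library 4 the nearest. In normalized counts the JZL184 and SAP groups overlapped. Relative to SAP, JZL184 showed a log2 fold change of 0.87 (SE 0.33, interval 0.14 to 1.61, edgeR adjusted p = 0.185, DESeq2 0.102, alternatives 0.0282 to 0.460). Against control it was 0.72 (SE 0.32, interval -0.02 to 1.46, edgeR adjusted p = 0.198). Without SAP libraries 1 and 2 the first of these was 0.52, and with SAP libraries 1 and 2 alone it was 1.33. SAP against control gave -0.13 (SE 0.38, edgeR adjusted p = 0.870), or 0.22 without SAP libraries 1 and 2.

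Ddit3 encodes CHOP, a transcription factor linked to cell death under lasting ER stress. Its FPKM was 89.05, 82.5 and 92.7 in control, 54.0, 34.8, 84.0 and 89.7 in SAP and 56.25, 73.5, 93.8 and 33.6 in JZL184. SAP libraries 1 and 2 and JZL184 libraries 1 and 4 were low, at 0.61, 0.39, 0.63 and 0.38 of the control mean. JZL184 library 2 was at 0.82 of it, and the others lay between 0.94 and 1.05. In normalized counts, all SAP and all JZL184 libraries lay below both control samples. On the log2 scale, SAP differed from control by -0.58 (SE 0.44, interval -1.61 to 0.45, edgeR adjusted p = 0.524), and by -0.10 without SAP libraries 1 and 2. Against SAP, JZL184 gave 0.09 (SE 0.41, adjusted p = 0.907), or -0.39 without these libraries, and against control it gave -0.51 (SE 0.38, interval -1.38 to 0.36, adjusted p = 0.420). With SAP libraries 1 and 2 alone, edgeR called Ddit3 lower in SAP by 1.29 (adjusted p = 0.00736, alternatives 0.00736 to 0.979). Ddit3 was the shortest of the 10 transcripts, with 12.1% of all genes shorter. The next shortest were Trib3 (19.7%), Chac1 (23.2%), Atf4 (26.0%) and Xbp1 (29.2%). With SAP libraries 1 and 2 alone they gave log2 fold changes of -0.69, 1.46, -0.60 and 1.20 against control. With offsets for gene length and all SAP libraries, edgeR called 0 of 16029 genes in SAP against control. Such offsets were not fitted with SAP libraries 1 and 2 alone, so the part of transcript length in that Ddit3 result was not tested.

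Trib3 encodes a pseudokinase that dampens ATF4 activity. Its FPKM was 14.35, 14.5 and 9.16 in control, 6.88, 11.3, 9.47 and 13.8 in SAP and 8.88, 8.38, 4.40 and 7.63 in JZL184. The JZL184 libraries lay below all control libraries but overlapped SAP, and in normalized counts they overlapped control as well. The log2 fold change was -0.72 in JZL184 against control (SE 0.39, interval -1.61 to 0.16, edgeR adjusted p = 0.270), -0.35 in JZL184 against SAP (adjusted p = 0.569) and -0.35 in SAP against control (adjusted p = 0.654). Without SAP libraries 1 and 2 the last 2 were -0.61 and -0.09.

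Chac1, which encodes an enzyme that breaks down glutathione, was the scarcest of the 10, with 27 to 181 reads per library. Its FPKM was 0.68, 0.56 and 0.66 in control, 0.92, 3.39, 0.99 and 3.50 in SAP and 1.26, 2.59, 1.78 and 1.41 in JZL184. All libraries of both pancreatitis groups lay above all control libraries, and SAP libraries 2 and 4 were highest. The difference of SAP from control was 1.64 on the log2 scale (SE 0.72, interval -0.03 to 3.30, edgeR adjusted p = 0.459) and 1.78 without SAP libraries 1 and 2. In JZL184 against control it was 1.46 (SE 0.50, interval 0.32 to 2.59, edgeR adjusted p = 0.120, DESeq2 0.0587, alternatives 0.0303 to 0.611). Between JZL184 and SAP it was -0.15 (interval -1.36 to 1.06, adjusted p = 0.883) and -0.30 without SAP libraries 1 and 2. With control libraries 1 and 2 as separate samples, edgeR called Chac1 higher in JZL184 than in control.

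Asns encodes asparagine synthetase, a classic ATF4 target. Its FPKM was 4.41, 4.18 and 3.35 in control, 7.26, 12.4, 4.37 and 4.62 in SAP and 4.37, 4.91, 2.47 and 4.81 in JZL184. SAP libraries 1 and 2 were above all others, and the remaining libraries of the 3 groups overlapped. SAP against control gave a log2 fold change of 0.70 (SE 0.46, interval -0.36 to 1.75, edgeR adjusted p = 0.480) and 0.16 without these libraries. For JZL184 against SAP the value was -0.57 (SE 0.38, interval -1.42 to 0.27, adjusted p = 0.383) and -0.05 without them.

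Sesn2 encodes sestrin 2, a stress-induced inhibitor of mTORC1 and a target of ATF4 and p53. Its FPKM was 6.59, 6.51 and 5.90 in control, 14.65, 18.5, 9.32 and 8.82 in SAP and 6.30, 5.20, 5.55 and 6.12 in JZL184. Every SAP library lay above every library of both other groups, also SAP libraries 3 and 4, and JZL184 and control overlapped. On the log2 scale, SAP differed from control by 0.84 (SE 0.36, interval 0.01 to 1.68, edgeR adjusted p = 0.459), and by 0.47 without SAP libraries 1 and 2. The change from SAP to JZL184 was -0.96 (SE 0.26, interval -1.53 to -0.38, edgeR adjusted p = 0.110) and -0.60 without these libraries. DESeq2 gave an adjusted p of 0.0239 with a fold change that did not reach the threshold, between 0.0174 and 0.260 over the alternatives. JZL184 against control gave -0.14 (SE 0.26, interval -0.74 to 0.45, edgeR adjusted p = 0.751).

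**Figure D2:**
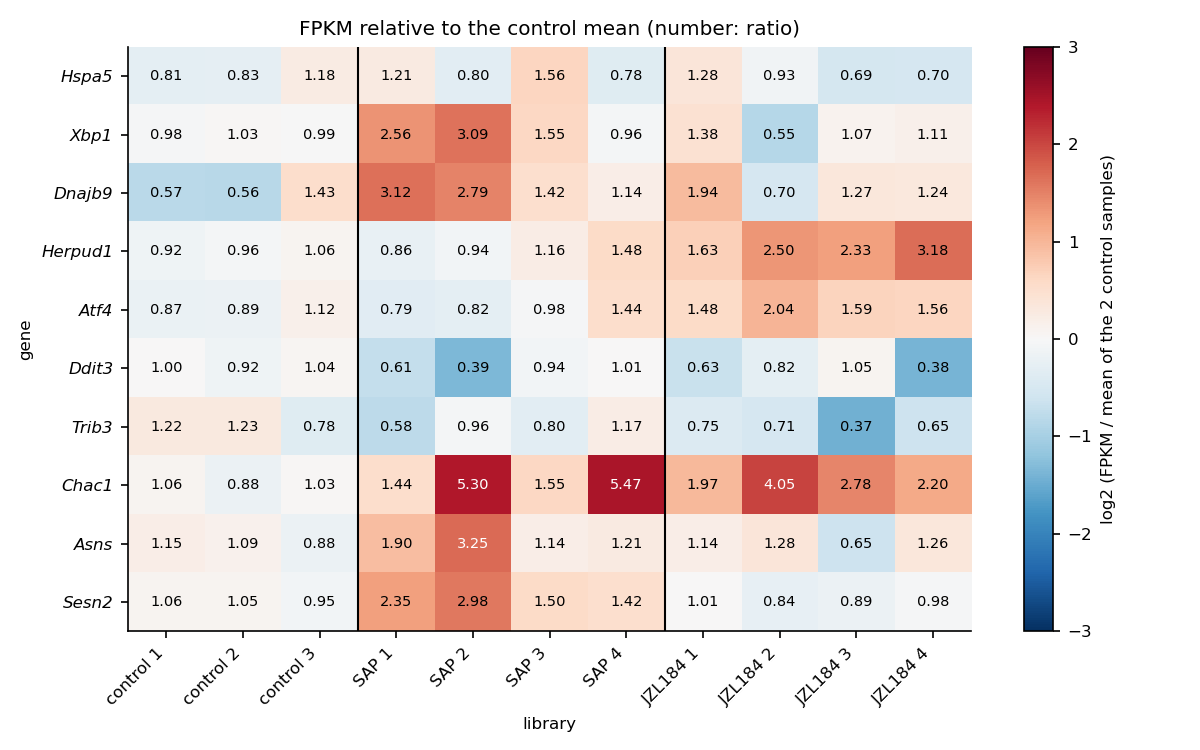
FPKM of the 10 genes (rows) in each of the 11 libraries (columns), divided by the mean of the 2 control samples. The color shows the log2 ratio and the number in each cell the ratio, and SAP libraries 1 and 2 reach 2.56 and 3.09 for Xbp1 where SAP library 4 is at 0.96.

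The SAP libraries also differed among themselves. In SAP libraries 1 and 2, Xbp1, Dnajb9, Asns and Sesn2 were between 1.90 and 3.25 times the control mean and Ddit3 was at 0.61 and 0.39 of it. In SAP libraries 3 and 4 the same ratios were 0.96 to 1.55 and 0.94 to 1.01. Hspa5 did not follow this division, at 1.21 and 0.80 in the first pair and 1.56 and 0.78 in the second. In the 4 JZL184 libraries Herpud1 was 1.63 to 3.18 times and Atf4 1.48 to 2.04 times the control mean, while Trib3 was at 0.37 to 0.75 of it.

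Between SAP and control, edgeR called 0 of the 10 genes, as it called 0 of 16029 genes in all (0.0%). DESeq2 also called 0 of the 10, against 0.894% of 23278 genes. It was run without edgeR's filter on low counts, which all 10 genes had passed. At an unadjusted p below 0.05 there was 1 of the 10 genes, Sesn2, which was higher, against 9.09% of all genes (5.69% higher and 3.4% lower). In normalized counts 3 of them showed no overlap between the groups, Chac1 and Sesn2 higher and Ddit3 lower in SAP, against 23.2% of all genes. The median log2 fold change of the 10 genes was 0.35, with a median of 0.06 over all genes. When SAP libraries 1 and 2 were left out, edgeR again called 0, against 0.482% of all genes, and the median was 0.24. With SAP libraries 1 and 2 alone edgeR called 5, with Xbp1, Dnajb9, Asns and Sesn2 higher and Ddit3 lower, where it called 5859 of 15764 genes in all (37.2%).

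Between JZL184 and SAP, edgeR called 0 of the 10 genes and 0 of 15308 genes in all (0.0%). DESeq2 called 1 of the 10, Herpud1, against 5.35% of 23991 genes tested without the filter. At an unadjusted p below 0.05 there were 4, with Herpud1 and Atf4 higher and Xbp1 and Sesn2 lower in JZL184, against 21.3% of all genes. Without SAP libraries 1 and 2 this number was 2, 1 in each direction, where 2760 of 15883 genes in all had such a p. The groups did not overlap for Herpud1, which was higher, and Sesn2, which was lower, or 2 of the 10 genes against 11.8% of all genes. The median log2 fold change was -0.25, and -0.05 over all genes. Both this comparison and the preceding one use the SAP libraries, so that a value of opposite sign in them is fixed in part by the shared libraries.

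Between JZL184 and control, edgeR called 0 of the 10 genes, against 2.16% of the 15916 genes tested. DESeq2 called 1, Herpud1, against 8.07% of 23543 genes tested without the filter. Herpud1 and Chac1, 2 of the 10, had an unadjusted p below 0.05 with edgeR, against 26.3% of all genes. In 4 of the 10 genes the groups did not overlap, against 38.3% of all genes, with Herpud1, Atf4 and Chac1 higher and Ddit3 lower in JZL184. The median log2 fold change was 0.04, compared with 0.08 over all genes.

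**Figure D3:**
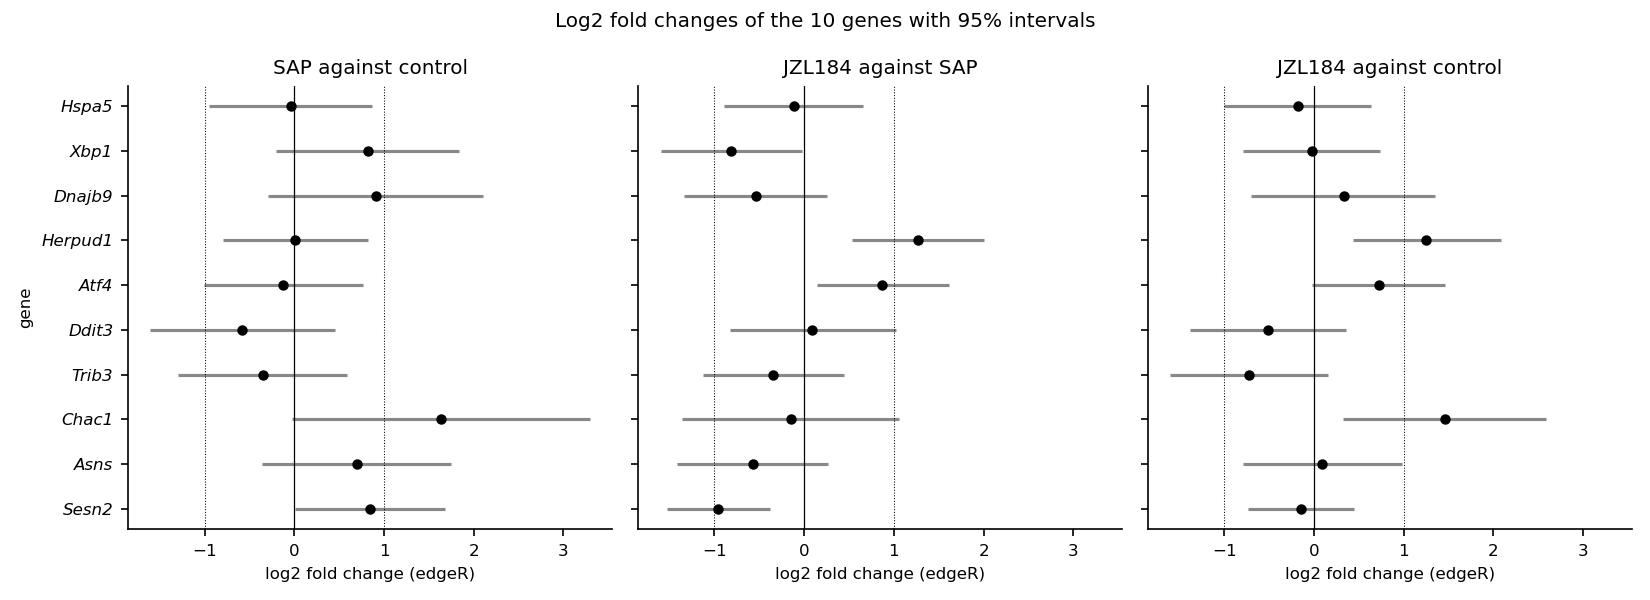
Log2 fold change of the 10 genes (points) with the 95% interval (bars) from edgeR in the 3 comparisons, with dotted lines at -1 and 1, the fold change threshold. The interval of Herpud1 lies above 0 in both comparisons with JZL184 (0.53 to 2.01 and 0.43 to 2.08), while that of Hspa5 crosses 0 in all 3.

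Around the 10 genes, 80 further genes of the pathway were followed in 5 lists, and 79 had enough reads for a test in each comparison. Fgf21 was not tested. Over the 5 lists, edgeR called 0 genes in SAP against control, 0 in JZL184 against SAP and 1 in JZL184 against control, which was Atf3. At an unadjusted p below 0.05 there were 3 higher and 1 lower, 14 higher and 12 lower, and 14 higher and 11 lower, in this order, or 4, 26 and 25 of 79 against 9.09%, 21.3% and 26.3% of all genes. DESeq2 called 2 of them in SAP against control, 8 in JZL184 against SAP and 10 in JZL184 against control. The shares of all genes it called were 0.894%, 5.35% and 8.07%. These are shares of 23278, 23991 and 23543 genes tested without edgeR's filter on low counts. The 79 genes had passed that filter, so the counts and the shares have unlike bases.

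**Figure D4:**
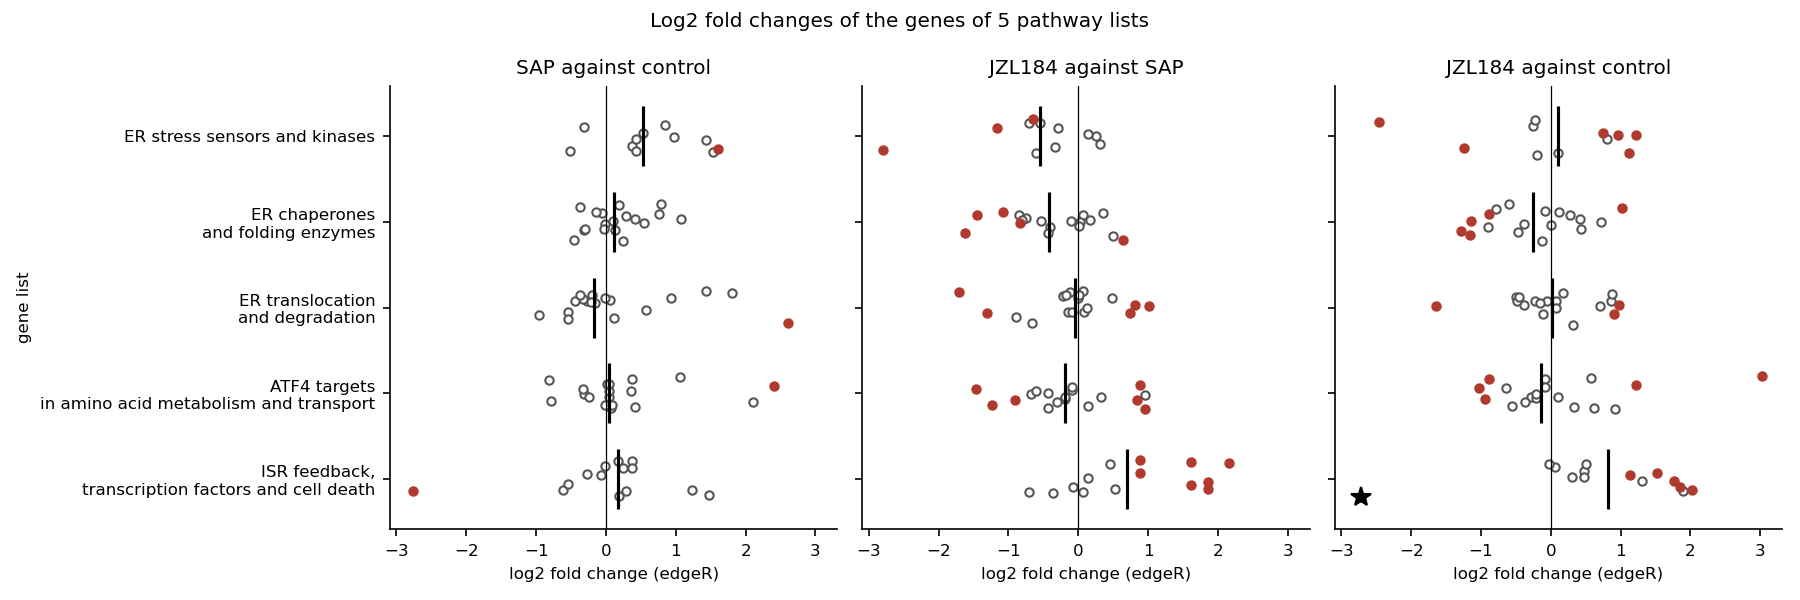
Log2 fold changes from edgeR of the genes of 5 pathway lists (rows) in the 3 comparisons. Each circle is a gene, filled where the unadjusted p is below 0.05, the star is the 1 called gene (Atf3, -2.72), and the vertical bar is the median of the list, which is 0.70 in JZL184 against SAP and 0.82 in JZL184 against control for the list of feedback regulators, transcription factors and cell death genes.

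One list held feedback regulators, transcription factors and cell death genes downstream of the integrated stress response. Like the other lists, it was chosen with earlier results of these data known, so its counts are a description. In it, 11 of the 14 genes tested had a log2 fold change above 0 in JZL184 against SAP, and 12 against control. Over all genes, 7256 of 15308 and 8594 of 15916 were above 0. Against SAP, 7 of the list were higher at an unadjusted p below 0.05 and 0 lower, where 10.3% of all genes were higher and 11.1% lower. The median log2 fold change was 0.70, and edgeR called 0. Without SAP libraries 1 and 2 there were 5 higher and 0 lower with a median of 0.86, where 2760 of 15883 genes in all had such a p. Against control, 5 were higher and 1 lower, where 13.8% of all genes were higher and 12.5% lower, with a median of 0.82. In SAP against control the median was 0.18, and 0.15 without SAP libraries 1 and 2.

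Ppp1r15a encodes GADD34, the phosphatase subunit that removes the phosphate from eIF2 alpha. Its FPKM was 50.3, 50.3 and 38.9 in control, 27.45, 22.15, 34.0 and 46.0 in SAP and 51.8, 137, 187 and 149 in JZL184. JZL184 libraries 2, 3 and 4 were high and library 1 was near control, and all 4 were above SAP. The log2 fold change against SAP was 2.16 (SE 0.44, interval 1.17 to 3.15), with adjusted p-values of 0.0851 from edgeR and 0.000375 from DESeq2, which called it, and between 0.000375 and 0.217 over the alternatives. The value was 1.77 without SAP libraries 1 and 2. Against control it was 1.52 (SE 0.52, interval 0.35 to 2.70), with adjusted p-values of 0.118 from edgeR and 0.0346 from DESeq2, which called it. In normalized counts the JZL184 and control groups overlapped. SAP against control gave -0.61 (SE 0.40, edgeR adjusted p = 0.479), or -0.22 without SAP libraries 1 and 2.

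Ddit4, which encodes the mTORC1 inhibitor REDD1, had an FPKM of 6.99, 5.96 and 11.5 in control, 8.51, 13.2, 12.2 and 13.2 in SAP and 16.8, 29.85, 40.4 and 43.2 in JZL184. All JZL184 libraries were higher than all others. Against SAP, the log2 fold change was 1.62 (SE 0.35, edgeR adjusted p = 0.0851, DESeq2 0.0019, alternatives 0.0019 to 0.217), or 1.42 without SAP libraries 1 and 2. Against control it was 1.85 (SE 0.46, edgeR adjusted p = 0.0694, DESeq2 0.00315, alternatives 0.00315 to 0.588).

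Cebpb encodes a C/EBP transcription factor that can pair with ATF4 and also acts in acute inflammation. Its FPKM was 27.6, 27.7 and 34.3 in control, 19.2, 14.15, 45.6 and 49.0 in SAP and 73.9, 141, 110.1 and 96.3 in JZL184. Again all JZL184 libraries were above all others, and the SAP libraries fell into a low and a high pair. JZL184 differed from SAP on the log2 scale by 1.85 (SE 0.48, edgeR adjusted p = 0.105, DESeq2 0.00772, alternatives 0.00772 to 0.260). This difference was 1.23 without SAP libraries 1 and 2 and 2.96 with these alone. Against control it was 1.76 (SE 0.38, edgeR adjusted p = 0.0561, DESeq2 0.00128, alternatives 0.00128 to 0.559). The sum of the neutrophil markers was also highest in JZL184 library 2, at 250.4. It was 12.9 in JZL184 library 3, where Cebpb was 110.1, and 80.5 in SAP library 1, where Cebpb was 19.2. The part of neutrophils in this result was not tested.

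Atf3, a stress-induced repressor and early response gene, moved the other way. Its FPKM was 54.4, 53.3 and 24.3 in control, 6.42, 5.14, 4.82 and 9.67 in SAP and 6.13, 4.73, 7.32 and 6.68 in JZL184. Every library with pancreatitis was far below every control library, and control library 3 was well below the other 2. In JZL184 against control Atf3 fell by 2.72 on the log2 scale (SE 0.35, interval -3.52 to -1.92), with an adjusted p of 0.0156 with edgeR. The call was lost without the sample of control libraries 1 and 2 (adjusted p = 0.322), without control library 3 (0.0548) and without JZL184 library 2 (0.0599), with log2 fold changes of -1.96, -3.23 and -2.65. In SAP against control the value was -2.76 (SE 0.46, edgeR adjusted p = 0.226, DESeq2 9.21e-05, alternatives 9.21e-05 to 0.943), and edgeR called it without SAP libraries 1 and 2, at -2.50 (adjusted p = 0.0489). Between JZL184 and SAP it was 0.06 (interval -0.64 to 0.76), or -0.20 without these libraries.

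**Figure D5:**
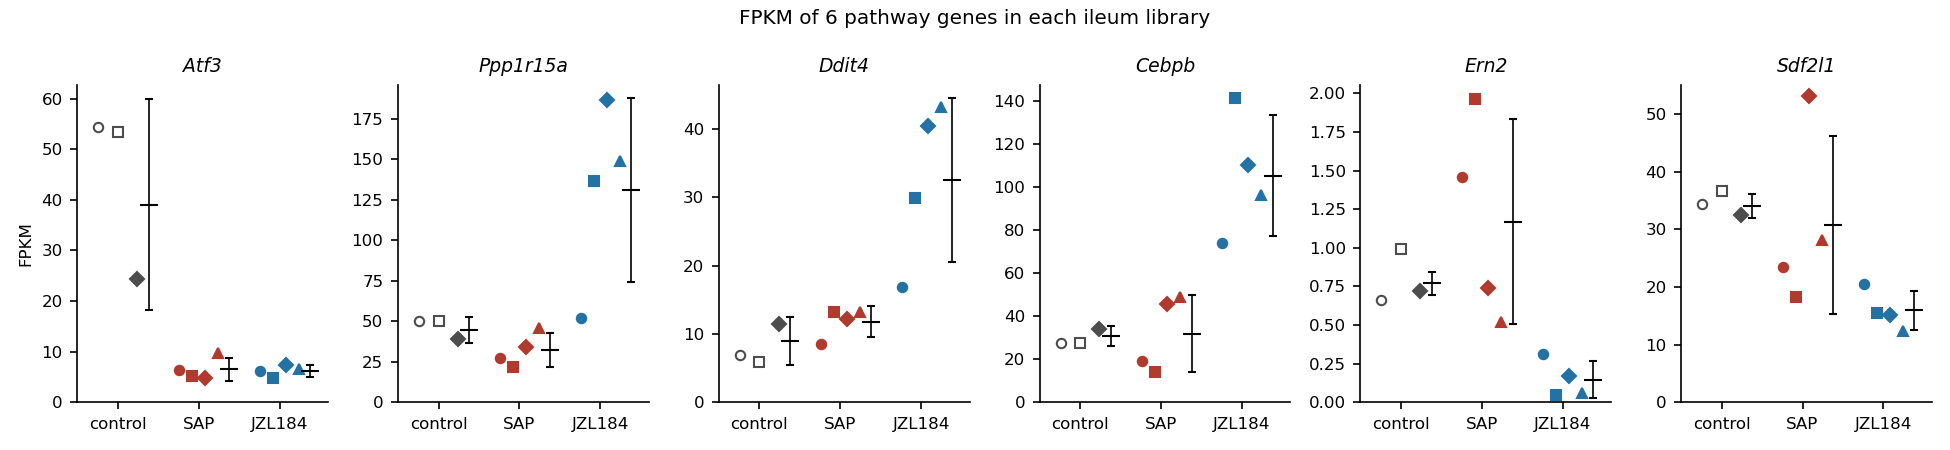
FPKM of 6 pathway genes in each library, with 1 panel per gene, the groups on the x axis, 1 symbol per library number, open symbols for control libraries 1 and 2, and the mean ± SD (n = 2, 4 and 4). Ddit4 and Cebpb are higher in all 4 JZL184 libraries than in any other, and Atf3 is at 9.67 or below in all libraries with pancreatitis and at 24.3 or above in control.

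Among the 11 ER stress sensors and eIF2 alpha kinases, 1 was higher in SAP than in control at an unadjusted p below 0.05 and 0 lower (median 0.53, or 0.10 without SAP libraries 1 and 2). In JZL184 against SAP 0 were higher and 3 lower (median -0.55, or 0.28 without SAP libraries 1 and 2). In JZL184 against control 4 were higher and 2 lower (median 0.10). Over all genes the shares higher and lower were 5.69% and 3.4%, 10.3% and 11.1%, and 13.8% and 12.5% in these 3 comparisons. Ern2 encodes IRE1 beta, the form of IRE1 found in mucus-secreting epithelium. Its FPKM was 0.66, 0.99 and 0.72 in control, 1.46, 1.96, 0.74 and 0.52 in SAP and 0.31, 0.05, 0.17 and 0.06 in JZL184. The JZL184 values rested on 31, 4, 15 and 5 reads. All JZL184 libraries were below all others. Relative to SAP, JZL184 showed a log2 fold change of -2.80 (SE 0.62, edgeR adjusted p = 0.0851, DESeq2 0.000375, alternatives 0.000375 to 0.219), or -2.06 without SAP libraries 1 and 2. Against control it was -2.46 (SE 0.66, edgeR adjusted p = 0.0783, DESeq2 0.00869, alternatives 0.00869 to 0.584). Of 7 goblet cell markers, Clca1 was also lower in all JZL184 libraries (11.7 to 86.6) than in SAP (174 to 611) and control (138 to 144). The other 6 overlapped SAP, and Fcgbp, Zg16 and Agr2 were below all control libraries. The summed FPKM of the 7 was 2207 to 7021 in JZL184, 2903 to 6069 in SAP and 5478 to 5749 in control, with Spink4 at 3740 of the 7021 in JZL184 library 2, and the part of goblet cells in the result was not tested. Eif2ak2, the RNA-sensing kinase PKR, lay between 7.46 and 13.4 in JZL184, between 15.0 and 44.6 in SAP and between 10.8 and 12.2 in control, with a log2 fold change of -1.17 in JZL184 against SAP (SE 0.32, edgeR adjusted p = 0.110, DESeq2 0.0242, alternatives 0.0208 to 0.276), or -0.79 without SAP libraries 1 and 2. Eif2s1, which encodes eIF2 alpha itself, was the most abundant of this list and lay between 75.1 and 133 in all libraries.

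Of the 18 ER chaperones and folding enzymes, 0 had an unadjusted p below 0.05 in SAP against control (median 0.11, or 0.12 without SAP libraries 1 and 2). In JZL184 against SAP 1 was higher and 4 lower (median -0.42, or -0.24 without SAP libraries 1 and 2), where 10.3% of all genes were higher and 11.1% lower. In JZL184 against control 1 was higher and 4 lower (median -0.26), where 13.8% of all genes were higher and 12.5% lower. Calr and Hsp90b1, the abundant chaperones calreticulin and GRP94, reached from 1084 to 3144 and from 417 to 1926 over the libraries. Both were lowest in JZL184 library 4 and highest in SAP library 3. Sdf2l1, a cofactor of BiP, had an FPKM of 34.4, 36.6 and 32.5 in control, 23.5, 18.2, 53.1 and 28.1 in SAP and 20.5, 15.6, 15.2 and 12.4 in JZL184. The JZL184 libraries were below all control libraries and overlapped SAP. The log2 fold change against control was -1.14 (SE 0.27, edgeR adjusted p = 0.0631, DESeq2 0.0202, alternatives 0.0106 to 0.566). An ER stress response element was found in 6 of the 15 windows available for this list (Calr, Canx, Creld2, Dnajc3, Ero1b and Hsp90b1).

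For the 18 genes of ER translocation and degradation, medians were -0.18, -0.05 and 0.02 in SAP against control, JZL184 against SAP and JZL184 against control. The first 2 were -0.03 and 0.15 without SAP libraries 1 and 2. At an unadjusted p below 0.05 there were 1 higher and 0 lower, 3 higher and 2 lower, and 2 higher and 1 lower. Over all genes the shares were 5.69% higher and 3.4% lower, 10.3% and 11.1%, and 13.8% and 12.5%. Without SAP libraries 1 and 2 there were 0 in the first 2 comparisons, where 1205 of 15362 and 2760 of 15883 genes in all passed. Selenos, an ER membrane selenoprotein of the retrotranslocation complex, had an FPKM of 112, 114 and 156 in control, 116, 144, 152 and 179.6 in SAP and 196, 173, 443 and 283 in JZL184. Library 3 of JZL184 was highest, and library 2 overlapped SAP in FPKM, though not in normalized counts. The log2 fold change against SAP was 1.01 (SE 0.33, edgeR adjusted p = 0.150, DESeq2 0.063, alternatives 0.0544 to 0.367), or 0.75 without SAP libraries 1 and 2. Edem3, a mannosidase that marks glycoproteins for degradation, had an FPKM of 12.4 and 16.2 in SAP libraries 1 and 2 against 1.71 and 1.29 in SAP libraries 3 and 4 and 0.54 to 1.62 in control. Against control, SAP differed by 2.61 on the log2 scale (SE 1.11, edgeR adjusted p = 0.459), and by 0.39 without SAP libraries 1 and 2. In JZL184 against SAP it was -1.71, which turned to 0.49 without them. Os9, an ER lectin, lay between 112 and 219 in all libraries.

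The 18 ATF4 targets in amino acid metabolism and transport went in both directions, with medians of 0.04, -0.19 and -0.14 in SAP against control, JZL184 against SAP and JZL184 against control and 1 higher and 0 lower, 3 higher and 3 lower, and 2 higher and 3 lower at an unadjusted p below 0.05. Over all genes the shares higher and lower at that p were 5.69% and 3.4%, 10.3% and 11.1%, and 13.8% and 12.5%. The first 2 medians of the list were -0.06 and -0.27 without SAP libraries 1 and 2. Aldh1l2, a mitochondrial enzyme of folate metabolism, had an FPKM of 0.14, 0.24 and 0.16 in control, 1.48, 1.14, 1.22 and 0.45 in SAP and 0.90, 0.09, 0.14 and 0.28 in JZL184. Its reads were few, at 16, 28 and 19 in control, 211, 144, 142 and 57 in SAP and 118, 10, 16 and 31 in JZL184. All SAP libraries were above all control libraries. Against control, SAP differed by 2.41 on the log2 scale (SE 0.53, interval 1.17 to 3.65, edgeR adjusted p = 0.421, DESeq2 0.00221, alternatives 0.00221 to 0.943), and by 2.15 without SAP libraries 1 and 2. Sars1 and Nars1, which charge tRNA with serine and asparagine, were the most abundant of the list. Sars1 lay between 64.1 and 69.5 in JZL184, below all SAP and control libraries (74.7 to 134), and Nars1 was at 145 and 187 in SAP libraries 1 and 2 and between 18.0 and 73.5 in all other libraries. The change of Nars1 in JZL184 against SAP was -1.23 on the log2 scale (SE 0.51, edgeR adjusted p = 0.208), and -0.25 without SAP libraries 1 and 2.

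The genes outside these lists whose normalized counts followed Hspa5 most closely over the 10 samples, among 6338 genes with a mean FPKM of at least 5, were Tma16 (Pearson r = 0.883), Rpn1 (0.856) and Ran (0.823). These are the highest of many values over samples that share group and depth, and they are given as a description. Rpn1 encodes ribophorin 1, a subunit of the ER enzyme that attaches sugars to nascent proteins, and Ran a small GTPase of nuclear transport.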

How the data were processed

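RNA of the ileum was sequenced in 3 control, 4 SAP and 4 JZL184 libraries. After trimming, the authors aligned reads to mRatBN7.2 with HISAT2 and deposited a count of uniquely aligned reads per gene, without normalization. The authors also deposited FPKM, normalized for transcript length and library size, with 2 decimals. Which tool and annotation served for counting is not given in the sources used here. Groups follow the labels. The labels do not say whether each library came from a separate rat, so p-values measure the spread between libraries. The members and gene lists were chosen with earlier results of these data known, and so was the choice to sum control libraries 1 and 2 as 1 sample.

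Counts were compared between pairs of groups with edgeR 4.0.16 (R 4.3.3, quasi-likelihood test, TMM, default filter with a minimum count of 10), and p was adjusted over all genes tested by Benjamini-Hochberg. Genes were called at 2-fold or more in either direction (ratio 2 or 0.5) with adjusted p below 0.05. DESeq2 1.42.0 (the study's tool), its size factors in edgeR, no filter, 1 fit of all groups, separate control libraries, a replicate block, gene length offsets (span 0.3) and leaving out libraries were alternatives. The depth, from 26341299 to 33847135 reads, made counting error small except for genes with few reads, such as Chac1, Ern2 and Aldh1l2.

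All 10 members are named, with the 2 most abundant genes of each list, called genes, and the 3 smallest p over the 5 lists per comparison. The fits of list genes without SAP libraries, and of named list genes under each alternative, were added after seeing the data. Splicing of Xbp1 was not analysed here. The genes most like Asns are not reported here.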

Additional observations from a re-analysis of the deposited data

Results flagged for a closer look

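Of 54 groups of 4 libraries examined for 27 genes, 1 held a library far from the others. The FPKM of Nupr1, a stress-induced chromatin factor of the pathway, was 1382 in JZL184 library 3, against 146, 307 and 203 in the other JZL184 libraries, 147 to 211 in SAP and 182 to 209.8 in control. The gap to the next library was 0.87 of the range of the group, above the 95% critical value for 4 values, and chance alone flags about 1 in 20 groups. The log2 fold change of Nupr1 in JZL184 against SAP was 1.61 (SE 0.64, edgeR adjusted p = 0.195), without SAP libraries 1 and 2 it was 1.32, and without library 3 it was 0.50, the lowest of the alternatives, which reached 1.95. None of the 10 members had such a library.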

How the results depend on the processing

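Of 440 values of the 10 genes under the alternatives, 384 kept direction and call, 15 were called where edgeR's test had not, and 41 changed sign, with values from -0.44 to 0.26. In SAP against control, the log2 fold change of Hspa5 was 0.04 with separate control libraries 1 and 2, 0.08 with these and a replicate block, 0.003 with gene length offsets, 0.15 without SAP libraries 1 and 2, and -0.30 to 0.16 with 1 sample left out. Herpud1 was -0.0002 with DESeq2's size factors, -0.03 in 1 fit of all groups, -0.22 with the replicate block, -0.44 without SAP libraries 3 and 4 and -0.23 to 0.14 with 1 sample left out. Atf4 was 0.03 with length offsets, 0.22 without SAP libraries 1 and 2 and -0.42 to 0.01 with 1 sample left out, and Trib3 was -0.70 to 0.09. In JZL184 against SAP, Hspa5 was 0.11 without SAP libraries 3 and 4 and -0.27 to 0.13 with 1 left out, Dnajb9 0.04 without SAP libraries 1 and 2, Ddit3 -0.02 with length offsets, -0.39 without SAP libraries 1 and 2 and -0.14 to 0.35 with 1 left out, and Chac1 0.07 with the replicate block, 0.01 without SAP libraries 3 and 4 and -0.49 to 0.26 with 1 left out. Edem3 was 0.49 without SAP libraries 1 and 2. In JZL184 against control, Xbp1 was 0.13 with length offsets, Asns -0.12 with the replicate block, and with 1 sample left out Hspa5 was -0.37 to 0.02, Xbp1 -0.16 to 0.15, Dnajb9 -0.16 to 1.05 and Asns -0.14 to 0.34. In these values the cause was not tested.

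Over all genes, the number called in SAP against control was 208 with DESeq2, 14 without a filter, 4 in 1 fit, 33 with separate control libraries, 1 with these and the block, 74 without SAP libraries 1 and 2, 5859 without SAP libraries 3 and 4 and 0 to 3 with 1 sample left out. Of the 10 genes, 5 were called without SAP libraries 3 and 4, against 37.2% of all genes. In JZL184 against SAP it was 1283 with DESeq2, 27 without a filter, 207 in 1 fit, 46 with length offsets, 2912 without SAP libraries 3 and 4 and 0 to 655 with 1 left out (655 without JZL184 library 1, 0 with the replicate block). Of the 10 genes, DESeq2 called 1, against 5.35% of the genes it tested. The fit without SAP libraries 3 and 4 called 4, against 18.1% of all genes, and 0 to 1 were called with 1 library left out. In JZL184 against control it was 1899 with DESeq2, 929 without a filter, 2800 with separate control libraries, 1488 with these and the block, and 0 to 1867 with 1 sample left out, where 0 was reached without control libraries 1 and 2. Here 1 of the 10 genes was called with DESeq2, against 8.07% of the genes it tested. With separate control libraries 2 were called, against 2800 of 15427 genes in all, and with 1 JZL184 library left out 0 to 1. Replicate numbers gave correlations of deviations of -0.45 to 0.12 in JZL184 against SAP, so they were taken as names only. With 2 control samples and 4 per other group, the 95% intervals of most members spanned more than a 2-fold range.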
